A study of Mus musculus with 6 samples.

Results

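The ADAMTS proteases were followed in the ductus arteriosus (DA), the fetal vessel that joins the pulmonary artery to the aorta. They were taken as the 10 genes *Adamts1*, *Adamts2*, *Adamts3*, *Adamts4*, *Adamts5*, *Adamts7*, *Adamts9*, *Adamts10*, *Adamts12*, and *Adamts15*, matched by symbol, out of 19 ADAMTS protease genes and 23997 genes in all. *Adamts2* had been selected on its FPKM in these 6 libraries, which were lower in KO than in WT, so its difference between the groups is given as a description without a test. The other 9 were named with it as members of the same protease family. Bulk RNA-Seq was performed on untreated DA dissected at E17.5 from C57BL/6 mouse embryos. There were 3 WT libraries, from wild-type embryos, and 3 KO libraries, from embryos of genotype Prdm6f/f; SM22-Cre, in which both *Prdm6* alleles carried loxP sites and Cre was driven in smooth muscle cells (SMCs). Whether the WT embryos carried the Cre transgene, and whether a library held RNA of a single embryo, is not given in the sources used here, so p values measure only the spread between these libraries. Because Cre acted in SMCs and the whole vessel was sequenced, endothelium, adventitia, and attached tissue were not targeted but were measured.

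ADAMTS proteases are secreted zinc enzymes that cut proteins of the extracellular matrix. They are made with an inhibitory propeptide, which furin-type convertases remove, and carry thrombospondin repeats that help to place them in the matrix. Procollagen N-proteinases trim the amino-terminal propeptides of fibrillar collagens so that fibrils can assemble, whereas the proteoglycanases cut versican and aggrecan. In arteries, versican turnover and collagen and elastic fiber assembly shape the wall, and in the DA a versican- and hyaluronan-rich intimal cushion forms before closure.

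Values are FPKM, which are scaled for transcript length and library size, so that levels can be compared between genes. The upper quartile of FPKM was between 10.4 and 10.8 in the 6 libraries, and the depth of the libraries is unknown because no read counts were given. Other measures were less even. Summed FPKM ran from 412183 in WT 1 to 818503 in KO 2. The number of genes listed at 0 ran from 8338 in KO 2 to 11886 in WT 2. *Prdm6* itself was at 41.7, 48.4, and 19.8 FPKM in WT and 48.6, 27.1, and 15.4 FPKM in KO, so it did not separate the groups. Which part of *Prdm6* was floxed is not given in the sources used here, and a whole-gene value does not test the labels. With qRT-PCR, a separate measure, the paper reports lower *Prdm6* in the DA and the aorta of animals of the KO genotype. Among the SMC markers, *Myh11* was at 749, 284, and 308 FPKM in WT and 148, 157, and 65.6 FPKM in KO, and *Tagln* was at 1350, 762, and 684 FPKM in WT and 676, 460, and 216 FPKM in KO, both without overlap. KO library 0 held both *Xist* (81.0 FPKM) and the Y-linked *Ddx3y* (26.4 FPKM), whereas every other library had only 1 of them above 1 FPKM. WT library 1 and KO library 2 had the highest summed heart muscle markers, at 1082 and 1090 FPKM against 38.3 to 348 FPKM in the other libraries. The differences of *Adamts2*, *Adamts1*, and *Adamts5* are therefore also given without KO 0 and without WT 1 and KO 2. The pre-rRNA transcript *Rn45s* was listed at 0 in every WT library and between 3060 and 4520 FPKM in KO, and summed erythroid markers were 3820 to 7581 FPKM in WT and 4284 to 24358 FPKM in KO. Whether these bear on the ADAMTS values was not tested. None of the 8 SMC markers, 6 endothelium markers, or 6 fibroblast markers was listed at 0 in any library. This shows that their RNA was present, and not which vessel or attached tissue it came from.

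*Adamts2* encodes the main procollagen N-proteinase, which trims procollagens I, II, and III. It lies on chromosome 11 of GRCm38 from 50602084 to 50807573 and has 22 exons. Its start region is shown because *Adamts2* had the lowest log2 fold change of the 19 ADAMTS genes. That of *Adamts1* is shown beside it because *Adamts1* was the other of the 10 genes for which every KO library was below every WT library. RefSeq start regions, from 250 bases before to 50 bases after the start in GRCm38.p6, were at hand for 5 of the 10 genes. Both are written 5′ to 3′ in the direction of the gene, with matches to GGGCGG (the GC box) and TATAAA (the TATA box), on either strand, in capitals.
Adamts2 promoter, chr11:50601835-50602134, plus strand: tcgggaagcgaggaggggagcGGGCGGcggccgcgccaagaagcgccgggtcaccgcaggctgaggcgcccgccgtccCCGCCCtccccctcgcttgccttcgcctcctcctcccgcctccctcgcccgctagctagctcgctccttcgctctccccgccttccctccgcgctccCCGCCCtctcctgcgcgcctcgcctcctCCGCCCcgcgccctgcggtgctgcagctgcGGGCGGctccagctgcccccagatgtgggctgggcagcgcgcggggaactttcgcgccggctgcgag
Adamts1 promoter, chr16:85803064-85803363, minus strand: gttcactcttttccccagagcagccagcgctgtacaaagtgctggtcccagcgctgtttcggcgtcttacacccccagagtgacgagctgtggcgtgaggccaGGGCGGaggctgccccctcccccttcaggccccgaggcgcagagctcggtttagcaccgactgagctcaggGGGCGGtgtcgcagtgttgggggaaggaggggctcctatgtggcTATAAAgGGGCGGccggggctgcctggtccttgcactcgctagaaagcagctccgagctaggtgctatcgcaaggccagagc
The *Adamts2* sequence was 77.3% G or C with 41 CpG dinucleotides, against medians of 52.7% and 7 over the 32851 start regions of that length. It held 5 matches to GGGCGG, a motif found in 35.7% of all start regions, and none to TATAAA, found in 13.6%. A start this rich in G and C was not particular to *Adamts2*. Those of *Adamts3* and *Adamts20* were also 77.3% G or C with 41 CpG dinucleotides. That of *Adamts14* was 76.7% with 44, and held 7 matches to GGGCGG. Those of *Adamts9*, *Adamts12*, *Adamts13*, *Adamts17*, and *Adamts18* were lower, from 54.7% to 70%. The *Adamts1* sequence was 64.7% G or C with 18 CpG dinucleotides. It held 3 matches to GGGCGG and 1 to TATAAA, which began 32 bases before the start and did not overlap the GC boxes. Neither held a CArG box, the site of serum response factor, which 1.63% of all start regions held, or GCCNNNGGC, the site of AP-2 factors, which 16.6% held. These motifs were chosen after the values were seen, and a match describes the letters only.

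The FPKM of *Adamts2* in libraries 0, 1, and 2 of each group was 83.7, 82.8, and 66.3 for WT against 37.9, 35.2, and 32.9 for KO. Every KO library was below every WT library, and the KO values were close together. The mean was 77.6 ± 9.76 FPKM (SD, n = 3) in WT and 35.4 ± 2.53 FPKM (SD, n = 3) in KO, a ratio of 0.456. On the log2(FPKM + 0.1) scale, KO minus WT came to -1.13 (standard error 0.17, the log2 fold change here and below), where the median over the 12955 genes tested was 0.07. It was -1.18 without KO 0 and -1.03 without WT 1 and KO 2. The summed FPKM of 8 SMC markers, from *Acta2* to *Des*, was between 2456 and 5670 in WT and between 901 and 2363 in KO, with all 8 lower in KO and 5 without overlap, as 7.84% of all genes tested were in that direction, and their part in the difference of *Adamts2* was not tested. In bulk tissue, fewer cells of a type and less RNA per cell cannot be told apart. The summed SMC markers were 5670, 2828, and 2456 FPKM in WT and 2363, 1774, and 901 FPKM in KO. *Adamts2* fell in the same order within each group, but its values did not follow the size of these sums. WT 0 and WT 1 had sums of 5670 and 2828 FPKM, with *Adamts2* at 83.7 and 82.8 FPKM. WT 2 and KO 0 had sums of 2456 and 2363 FPKM, with *Adamts2* at 66.3 and 37.9 FPKM. The 6 fibroblast markers summed to 2577, 3474, and 4182 FPKM in WT and 2204, 4301, and 4032 FPKM in KO, which overlapped. Of these markers, 4 were higher and 2 lower in KO, with a median log2 fold change of 0.25. *Lum* was at 47, 62.4, and 109 FPKM in WT and 131, 172, and 159 FPKM in KO, above every WT library, as 8.21% of all genes tested were. *Dpt* lay the other way, with overlap (log2 fold changes 1.16 and -1.62). The part of fibroblasts in the difference of *Adamts2* was not tested either.

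**Figure D1:**
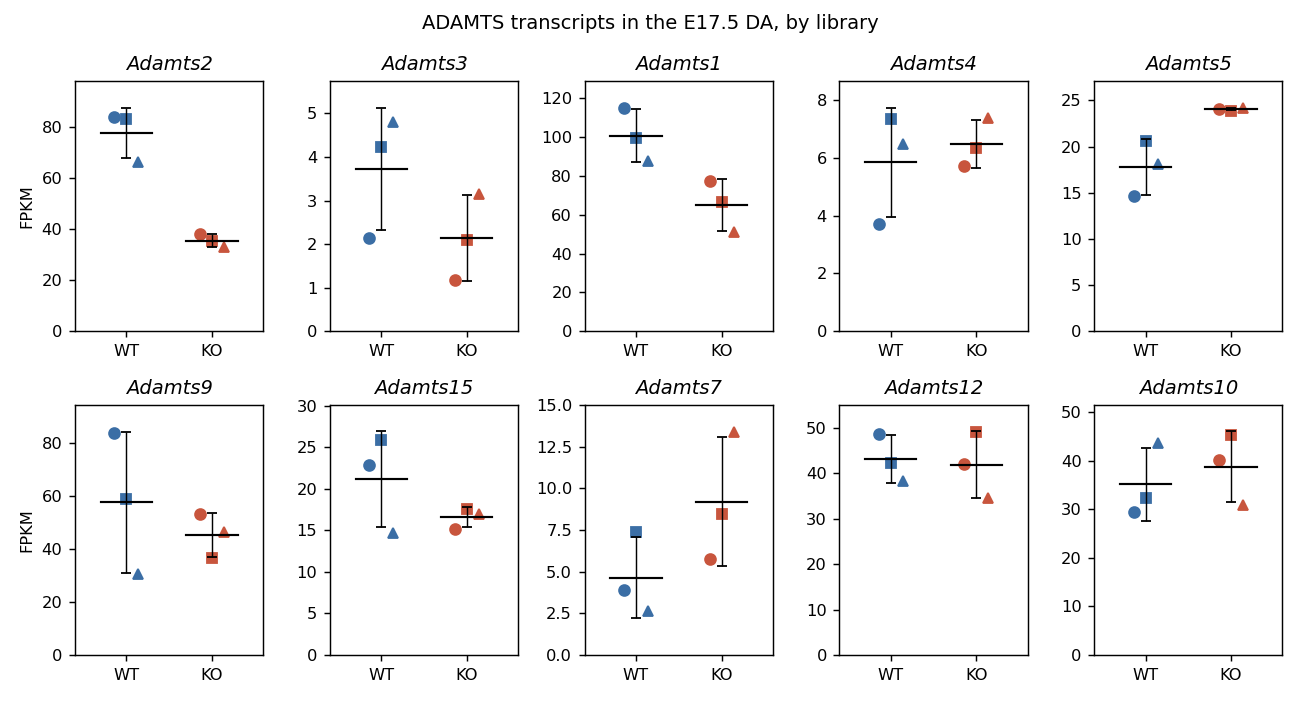
FPKM of the 10 ADAMTS genes (vertical axes, each from 0 and on its own scale) in WT (blue) and KO (red) libraries, with circles for library 0, squares for library 1, and triangles for library 2. Lines and bars give the mean ± SD (n = 3), and *Adamts2* and *Adamts1* are the panels in which all KO points lie below all WT points, whereas in the panel of *Adamts5* they lie above.

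*Adamts3*, which cuts procollagen II and activates VEGF-C with CCBE1, lies on chromosome 5 from 89677087 to 89883334 and was far less abundant than *Adamts2*. Its FPKM was 2.14, 4.24, and 4.80 in WT and 1.18, 2.09, and 3.15 in KO, and the groups overlapped. The log2 fold change was -0.80 (standard error 0.64, adjusted p = 0.722 from limma). *Adamts14*, the remaining procollagen N-proteinase, was at 5.57, 6.15, and 4.69 FPKM in WT and 6.99, 6.03, and 3.11 FPKM in KO, which overlapped (log2 fold change -0.09, standard error 0.44, adjusted p = 0.957 from limma). *Adamts2* thus made up most of the FPKM of these 3 enzymes in every library. Their sum was 91.4, 93.1, and 75.8 FPKM in WT and 46.1, 43.3, and 39.2 FPKM in KO. As a share of the summed FPKM of 19 ADAMTS genes, it was 20.7%, 21.0%, and 21.9% in WT and 13.2%, 13%, and 12% in KO, a description that carries the choice of *Adamts2*.

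The collagens that *Adamts2* acts on overlapped between the groups in most cases. *Col1a1*, the α1 chain of collagen I, was at 1173, 1892, and 2080 FPKM in WT and 829, 1597, and 1686 FPKM in KO, which overlapped (log2 fold change -0.35, standard error 0.37, adjusted p = 0.773 from limma). *Col3a1*, the chain of collagen III, was at 894, 1215, and 2074 FPKM in WT and 617, 1637, and 1610 FPKM in KO (log2 fold change -0.16, standard error 0.47, adjusted p = 0.924 from limma). For every 1000 FPKM of *Col1a1* there were 71.4, 43.7, and 31.9 FPKM of *Adamts2* in WT and 45.8, 22.1, and 19.5 FPKM in KO, so that KO 0 lay within the WT range. Over *Col5a1*, another fibrillar chain, the same ratio was 349, 267, and 220 in WT and 221, 161, and 151 in KO, and here KO 0 was just above WT 2. The ratio of *Adamts2* RNA to collagen RNA therefore overlapped between the groups for both chains, although *Adamts2* alone did not. These ratios do not give the amounts of enzyme and substrate protein.

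Of the 9 fibrillar procollagen genes, 8 passed the filter of a mean of at least 1 FPKM, 5 were lower and 3 higher in KO, and their median log2 fold change was -0.21. *Col5a1* was at 240, 310, and 301 FPKM in WT and 172, 218, and 217 FPKM in KO, below every WT library (log2 fold change -0.49, standard error 0.18, adjusted p = 0.586 from limma). *Col11a1*, a minor fibrillar chain, was at 5.71, 10.7, and 9.20 FPKM in WT and 12.9, 20.6, and 29.5 FPKM in KO, above every WT library (log2 fold change 1.26, standard error 0.38, adjusted p = 0.54 from limma). The 2 chains thus lay on opposite sides, and neither passed the threshold. *Bmp1*, the procollagen C-proteinase that removes the other propeptide, was at 41.0, 49.9, and 49.4 FPKM in WT and 38.3, 46.0, and 42.0 FPKM in KO (log2 fold change -0.15, standard error 0.17, adjusted p = 0.788 from limma). *Pcolce2*, an enhancer of that enzyme, was at 4.26, 3.73, and 13.7 FPKM in WT and 2.76, 0.812, and 1.53 FPKM in KO, without overlap (log2 fold change -1.92, standard error 0.72, adjusted p = 0.584 from limma). Of the 4 tested C-proteinases and enhancers, 3 were lower in KO and the median was -0.12.

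**Figure D2:**
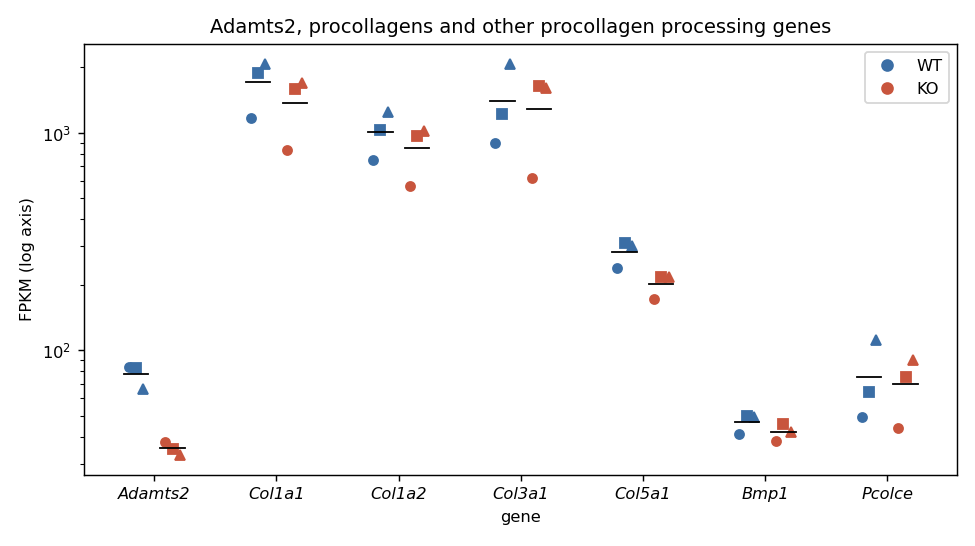
FPKM (log axis) of *Adamts2*, 4 procollagen chains, the C-proteinase *Bmp1*, and its enhancer *Pcolce* in WT (blue) and KO (red) libraries, with the mean as a line and circles, squares, and triangles for libraries 0, 1, and 2. The groups are apart for *Adamts2* and *Col5a1* and overlap for *Col1a1*, *Col1a2*, *Col3a1*, *Bmp1*, and *Pcolce*.

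Among the proteoglycanases, *Adamts1* was the most abundant, and had the highest FPKM of the 10 genes in every library. It lies on chromosome 16 from 85793827 to 85803113, has 9 exons, and cuts versican and aggrecan. Its FPKM was 115, 99.3, and 87.8 in WT and 77.5, 66.4, and 51.0 in KO. Every KO library was below every WT library, with means of 101 ± 13.4 FPKM (SD, n = 3) and 65.0 ± 13.3 FPKM (SD, n = 3) and a ratio of 0.646. The log2 fold change was -0.64 with a standard error of 0.20. In limma the p was 0.0145 before and 0.545 after adjustment over all genes, which did not pass the threshold. The two-sided exact permutation test gave p = 0.1, the smallest that 3 libraries against 3 allow. The log2 fold change was -0.78 without KO 0 and -0.48 without WT 1 and KO 2. As for *Adamts2*, the SMC markers were lower in the same libraries, and their part was not tested.

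*Adamts5*, which cuts aggrecan and versican, is the neighbor of *Adamts1* on chromosome 16. It lies from 85856173 to 85901828 on the same strand, 53.1 kb away, with 0 protein-coding genes between them. Its FPKM was 14.6, 20.6, and 18.1 in WT and 24.1, 23.9, and 24.2 in KO, so that the order of the groups was the opposite of that of its neighbor. The KO values were nearly equal, with a coefficient of variation of 0.661% against 17.1% in WT. The mean was 17.8 ± 3.03 FPKM (SD, n = 3) in WT and 24 ± 0.159 FPKM (SD, n = 3) in KO, a ratio of 1.35. The log2 fold change was 0.45 (standard error 0.21, adjusted p = 0.611 from limma), and the two-sided exact permutation test again gave p = 0.1. It was 0.45 without KO 0 and 0.56 without WT 1 and KO 2. The ratio of *Adamts1* to *Adamts5* was 7.85, 4.82, and 4.86 in WT and 3.22, 2.78, and 2.11 in KO, without overlap. This ratio was formed after the values were seen and has no test.

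*Adamts9*, which cuts versican and also acts in secretion from the endoplasmic reticulum, had the largest SD of the ADAMTS genes in WT (26.6 FPKM, n = 3). Relative to the mean its spread was not the widest. Its coefficient of variation in WT was 46.1%, below those of less abundant genes such as *Adamts7* (52.5%) and *Adamts19* (107%). The gene (chromosome 6, 92772699 to 92943492) was at 83.6, 58.9, and 30.5 FPKM in WT and 53.0, 36.5, and 46.4 FPKM in KO, and all 3 KO values lay within the WT range. The log2 fold change was -0.25 (standard error 0.36, adjusted p = 0.831 from limma), and it turned to 0.08 without WT 0. *Adamts15*, another versicanase (chromosome 9, 30899155 to 30922452), was at 22.9, 25.8, and 14.7 FPKM in WT and 15.2, 17.55, and 17 FPKM in KO, which overlapped (log2 fold change -0.31, standard error 0.26, adjusted p = 0.729 from limma). *Adamts4*, an aggrecanase (chromosome 1, 171250421 to 171260637), was at 3.72, 7.35, and 6.48 FPKM in WT and 5.73, 6.35, and 7.39 FPKM in KO (log2 fold change 0.20, standard error 0.39, adjusted p = 0.878 from limma), and turned to -0.10 without WT 0. Antisense transcripts overlap exons of *Adamts9*, and whether reads were assigned by strand is not given in the sources used here, so its value is uncertain.

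Over all 7 proteoglycanases, with *Adamts8* and *Adamts20* added, the summed FPKM was 244, 231, and 165 in WT and 187, 161, and 160 in KO, which overlapped. Their share of the summed ADAMTS FPKM was 55.4%, 52.0%, and 47.7% in WT and 53.4%, 48.1%, and 49.2% in KO. *Vcan*, which encodes the substrate versican, was at 202, 162, and 154 FPKM in WT and 219, 207, and 167 FPKM in KO (log2 fold change 0.20, standard error 0.18, adjusted p = 0.748 from limma). *Acan*, which encodes aggrecan, was at 25.6, 26.4, and 34.9 FPKM in WT and 29.6, 44.8, and 18.4 FPKM in KO (log2 fold change 0.02, standard error 0.33, adjusted p = 0.989 from limma). Of the 8 hyalectans and link proteins, 3 passed the filter, with *Hapln1* as the third, and 0 of these were without overlap. *Acan* and *Hapln1* are also cartilage markers, and the 6 markers of that list summed to 28.8, 30.6, and 46.3 FPKM in WT and 36.3, 50.4, and 35.6 FPKM in KO, which overlapped. Of these, 5 were tested, 4 of them higher in KO with a median over the 5 of 0.70, and 0 were without overlap. *Matn1* was listed at 0 in all 6 libraries, and the part of cartilage in the values of *Acan* was not tested.

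**Figure D3:**
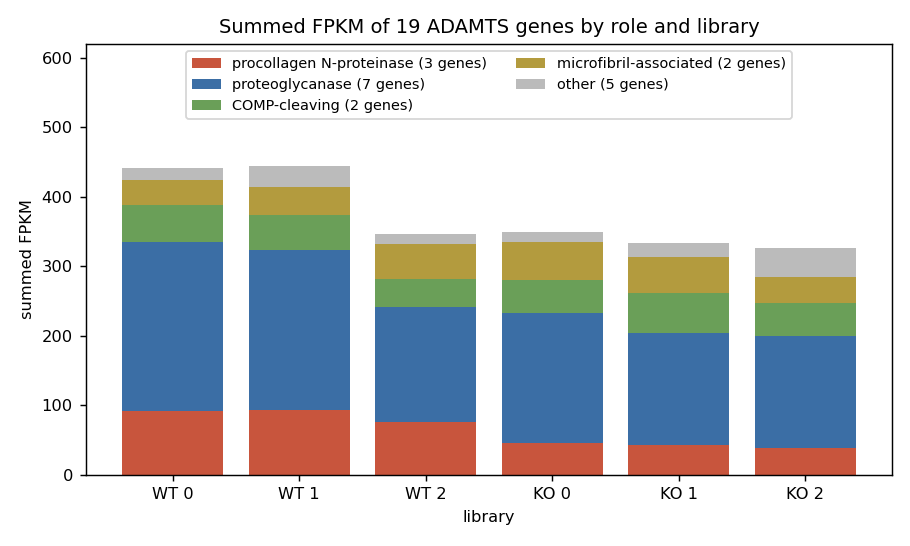
Summed FPKM of the 19 ADAMTS genes in each library (vertical axis, from 0), stacked by role. The total was 441, 444, and 346 FPKM in WT 0, 1, and 2 and 350, 334, and 326 FPKM in KO 0, 1, and 2, and the procollagen N-proteinases (red) are the role whose bars are smaller in every KO library than in every WT library.

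*Adamts7* and *Adamts12* are the pair that cut cartilage oligomeric matrix protein (COMP), and *Adamts7* is known from coronary artery disease loci and from SMC migration. *Adamts7* (chromosome 9, 90163069 to 90208071) was at 3.90, 7.37, and 2.66 FPKM in WT and 5.75, 8.45, and 13.4 FPKM in KO. The groups overlapped, since WT 1 was above KO 0, and the log2 fold change was 1.01 (standard error 0.51, adjusted p = 0.628 from limma). An exon of *Tbc1d2b*, at 15.3 to 18.9 FPKM in the 6 libraries, overlaps *Adamts7* on the other strand, which makes the value of *Adamts7* uncertain as well. *Adamts12* (chromosome 15, 11064790 to 11349231) was at 48.7, 42.3, and 38.3 FPKM in WT and 42.0, 49.2, and 34.6 FPKM in KO. Its means of 43.1 ± 5.21 FPKM (SD, n = 3) and 41.9 ± 7.27 FPKM (SD, n = 3) differed by less than the spread between libraries (log2 fold change -0.05, standard error 0.20, adjusted p = 0.951 from limma). *Comp* was at 1.83, 1.91, and 0 FPKM in WT and 0, 0.699, and 2.36 FPKM in KO, so RNA of the named substrate was scarce where that of *Adamts12* was abundant.

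*Adamts10* binds fibrillin microfibrils, and its loss in people causes Weill-Marchesani syndrome. It lies on chromosome 17 from 33524204 to 33553782. It was at 29.4, 32.4, and 43.6 FPKM in WT and 40.2, 45.2, and 30.8 FPKM in KO, which overlapped (log2 fold change 0.14, standard error 0.23, adjusted p = 0.847 from limma). *Adamts6*, its close homolog, was at 7.05, 8.69, and 6.21 FPKM in WT and 13.8, 6.27, and 7.32 FPKM in KO (log2 fold change 0.24, standard error 0.39, adjusted p = 0.845 from limma). Of 10 microfibril genes tested, 9 were lower in KO, where 5748 of all 12955 genes tested were, and the median log2 fold change was -0.33. In 3 of the 10 every KO value was below every WT value, as in 7.84% of all genes tested. The SMC markers, with 8 of 8 lower and sums of 2456 to 5670 FPKM in WT and 901 to 2363 FPKM in KO, lay the same way, and their part was not tested. *Fbn1*, which encodes fibrillin-1, was at 405, 366, and 394 FPKM in WT and 292, 345, and 260 FPKM in KO (log2 fold change -0.39, standard error 0.17, adjusted p = 0.609 from limma). *Mfap2*, a microfibril-associated glycoprotein, was at 79.5, 101, and 145 FPKM in WT and 52.9, 57.8, and 45 FPKM in KO (log2 fold change -1.02, standard error 0.24, adjusted p = 0.462 from limma). *Ltbp2*, a fibrillin-binding protein, was at 62.1, 58.5, and 43.0 FPKM in WT and 35.8, 29.2, and 16.9 FPKM in KO (log2 fold change -1.04, standard error 0.30, adjusted p = 0.524 from limma). None of the 10 passed the adjusted threshold in limma, and *Mfap2* and *Ltbp2* had an unadjusted p under 0.05.

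In WT, the order of mean levels ran from *Adamts1* (101 FPKM) through *Adamts2* (77.6), *Adamts9* (57.7), *Adamts12* (43.1), *Adamts10* (35.1), *Adamts15* (21.1), *Adamts5* (17.8), *Adamts4* (5.85), and *Adamts7* (4.64) to *Adamts3* (3.73 FPKM). Of the 9 neighbor pairs, 3 had ranges that were apart, namely *Adamts1* over *Adamts2*, *Adamts10* over *Adamts15*, and *Adamts5* over *Adamts4*. The other 6 did not differ beyond their spread. In KO, *Adamts2* ranked 4 or 5 within each library, in place of 2 in WT, and by its mean followed *Adamts10* (38.7 FPKM), from which it did not differ beyond the spread. This lower place follows from the selection of *Adamts2*. *Adamts5* (24 FPKM) was above *Adamts15* (16.6 FPKM) in all 3 KO libraries with ranges apart, whereas in WT they overlapped. In KO, 4 of the 9 neighbor pairs had ranges that were apart.

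For the group comparison over all 12955 genes with a mean of at least 1 FPKM, limma gave 0% of genes with an adjusted p under 0.05 and lower in KO and 0.00772% higher, the latter being *Rn45s* alone. Of the 9 ADAMTS genes other than *Adamts2*, 0 had an adjusted p under 0.05 in limma, and 1, *Adamts1*, had an unadjusted p under 0.05. Unadjusted, 4.97% of all genes tested were lower and 3.31% were higher with a p under 0.05. Among these 9 genes, 1 had every KO value below every WT value, against 7.84% of all genes tested, and 1, *Adamts5*, had every KO value above, against 8.21%, so the share was near the background. Of the 9 genes, 5 were lower and 4 higher in KO, with a median log2 fold change of -0.05, where 5748 of all 12955 genes tested were lower and the median was 0.07. With *Adamts2*, which was selected for its lower values, 6 of the 10 were lower and the median was -0.15.

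**Figure D4:**
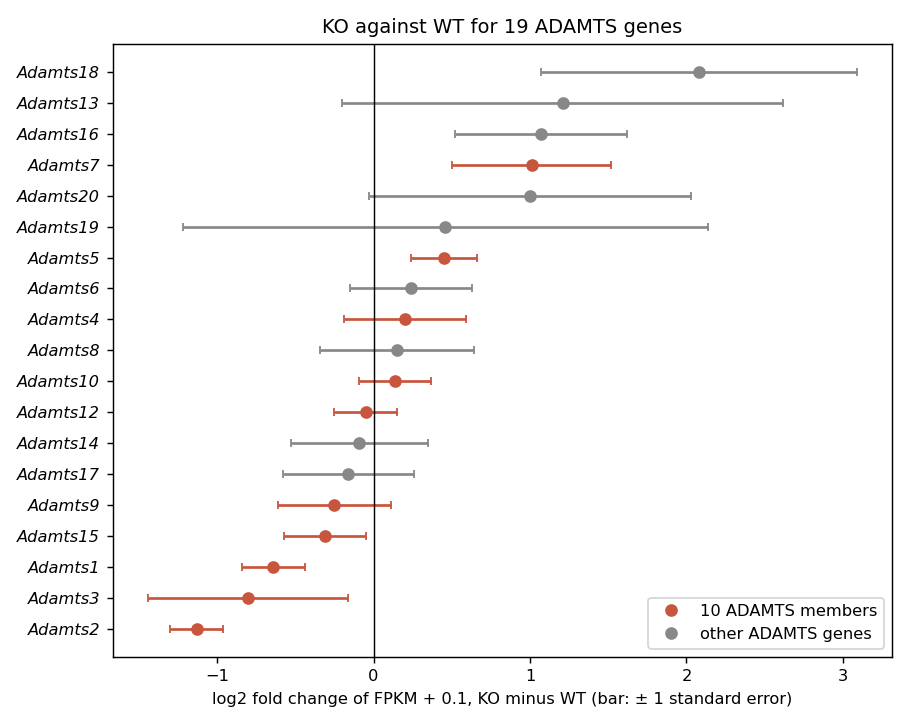
Log2 fold change of FPKM + 0.1, KO minus WT (horizontal axis), with ± 1 standard error from limma for the 10 ADAMTS genes followed here (red) and the other 9 (gray), ordered by value. *Adamts2* is lowest at -1.13, and the genes with the widest bars, *Adamts19* and *Adamts13*, have low FPKM.

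The other 9 ADAMTS genes passed the filter too. Of them, 7 were higher and 2 lower in KO, where 5748 of all 12955 genes tested were lower. Their median log2 fold change was 0.46, against 0.07 over all genes tested. In limma, 0 of them had an adjusted or an unadjusted p under 0.05. That median is the value of *Adamts19*, which was listed at 0 in WT 0 and turned to -1.25 without WT 0. *Adamts19* and *Adamts8* count as higher on the log2 scale, although their ratios of KO to WT means were 0.92 and 0.982. *Adamts16*, which can cut fibronectin, was at 1.76, 2.15, and 1.62 FPKM in WT and 3.64, 5.88, and 2.90 FPKM in KO, above every WT library (log2 fold change 1.07, standard error 0.55, adjusted p = 0.639 from limma). *Adamts18* was at 0.412, 1.94, and 0.433 FPKM in WT and 1.48, 2.59, and 9.81 FPKM in KO, so that its mean in KO rested on KO 2 (log2 fold change 2.08, standard error 1.01, adjusted p = 0.624 from limma, and 1.32 without KO 2). *Adamts20* was at 0.414, 2.97, and 1.49 FPKM in WT and 0.805, 3.48, and 6.14 FPKM in KO (log2 fold change 1.0, standard error 1.03, adjusted p = 0.766 from limma). KO 2 was highest for both *Adamts18* and *Adamts20*. It also had the highest summed Schwann cell markers, 106 FPKM against 22.6 and 78.5 FPKM in the other KO libraries and 8.51 to 10.4 FPKM in WT. Of these markers, 6 of 6 were higher in KO. KO 2 was likewise highest for summed heart muscle markers (1090 FPKM), neuron markers (48.7 FPKM), and all genes (818503 FPKM). Within WT, both genes were highest in WT 1. That library had the lowest summed Schwann cell markers in WT (8.51 FPKM) and the highest summed heart muscle markers (1082 FPKM). Whether these markers bear on the ADAMTS values was not tested. *Adamts8* (4.64 to 15.6 FPKM), *Adamts17* (7.70 to 20.8 FPKM), *Adamts19* (0 to 5.27 FPKM), and *Adamts13* (0 to 2.13 FPKM) overlapped between the groups, and *Adamts13*, which cuts von Willebrand factor, was the lowest on average.

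The ADAMTS-like proteins share the ancillary domains but lack the protease. Of 7, 6 were tested, 5 were lower in KO, and the median log2 fold change was -0.40. *Adamtsl5* was at 5.86, 4.48, and 4.56 FPKM in WT and 1.97, 2.56, and 2.92 FPKM in KO, without overlap (log2 fold change -0.98, standard error 0.46, adjusted p = 0.615 from limma). *Adamtsl4*, which binds fibrillin-1, was at 9.21, 9.94, and 11.2 FPKM in WT and 9.11, 6.61, and 6.47 FPKM in KO, where KO 0 was just below the lowest WT value (log2 fold change -0.46, standard error 0.30, adjusted p = 0.685 from limma).

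Of the inhibitors and the clearance receptor, 5 of 6 were tested, with 2 lower, 3 higher, and a median log2 fold change of 0.51. *Timp3*, the tissue inhibitor that blocks aggrecanases, was at 38.0, 32.8, and 52.3 FPKM in WT and 34.3, 71.4, and 76.8 FPKM in KO, which overlapped (log2 fold change 0.51, standard error 0.34, adjusted p = 0.687 from limma). *Lrp1*, the endocytic receptor that removes ADAMTS4 and ADAMTS5 from the matrix, was at 88.0, 92.3, and 89.0 FPKM in WT and 56.9, 67.6, and 62.2 FPKM in KO. Every KO library was below every WT library (log2 fold change -0.53, standard error 0.15, adjusted p = 0.502 from limma). *Timp2* was at 117, 107, and 126 FPKM in WT and 89.0, 96.1, and 83.7 FPKM in KO, also without overlap (log2 fold change -0.38, standard error 0.15, adjusted p = 0.591 from limma). *Timp1*, *Timp4*, and *A2m* were each listed at 0 in at least 1 library. *Timp1* and *Timp4* count as higher (log2 fold changes 1.58 and 0.76), but both were at 0 in WT 2. Their means were 7.79 and 3.02 FPKM in WT and 7.98 and 1.81 FPKM in KO. The count of 3 higher and the median of 0.51 therefore depend on these values of 0.

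Of the 5 genes for activation and modification, 4 were lower in KO and the median log2 fold change was -0.20. *Furin*, which removes the propeptide, was at 21.3, 26.6, and 18.2 FPKM in WT and 18.5, 18.6, and 18.2 FPKM in KO (log2 fold change -0.24, standard error 0.22, adjusted p = 0.743 from limma). *Pofut2*, which adds O-fucose to thrombospondin repeats and so lets ADAMTS proteins leave the cell, was at 58, 54.4, and 65.8 FPKM in WT and 41.1, 49.4, and 46.7 FPKM in KO, without overlap (log2 fold change -0.38, standard error 0.17, adjusted p = 0.601 from limma). *Ccbe1*, the partner of ADAMTS3, was at 1.04, 3.30, and 4.24 FPKM in WT and 1.34, 2.25, and 3.21 FPKM in KO (log2 fold change -0.20, standard error 0.75, adjusted p = 0.946 from limma). Its substrate *Vegfc* was at 3.10, 4.52, and 8.12 FPKM in WT and 2.83, 4.41, and 8.28 FPKM in KO (log2 fold change -0.05, standard error 0.56, adjusted p = 0.984 from limma). *Reln*, a large secreted protein that ADAMTS3 inactivates, was at 1.54, 2.32, and 6.26 FPKM in WT and 3.65, 18, and 22 FPKM in KO (log2 fold change 1.96, standard error 0.79, adjusted p = 0.591 from limma). Of the 7 genes listed as other ADAMTS substrates, which include *Comp*, *Vegfc*, and *Reln*, 3 were lower and 4 higher in KO, with a median of 0.11 and 0 without overlap.

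The 5 genes whose log2 values over the 6 libraries were most like those of *Adamts2*, among 12954, were *Itgb5*, *Egr1*, *Loxl1*, *Gna14*, and *Nxn*, with Pearson correlations from 0.984 to 0.988. With 6 libraries in groups that were apart, any gene with a like gap between the groups scores highly, and this is a description only. *Loxl1*, which cross-links elastin, was at 99.5, 103, and 76.4 FPKM in WT and 46.1, 49.0, and 47.6 FPKM in KO, a pattern of levels close to that of *Adamts2*. *Itgb5*, an integrin subunit, was at 61.1, 62.0, and 57.0 FPKM in WT and 36.8, 31.0, and 31.6 FPKM in KO.

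With each library omitted in turn, the log2 fold change of *Adamts2* was between -1.24 and -1.07, a range that carries its selection on these libraries and is no sign of stability. It was between -0.78 and -0.48 for *Adamts1*, 0.31 and 0.56 for *Adamts5*, and 0.68 and 1.40 for *Adamts7*. For *Adamts1* and *Adamts5*, whose groups did not overlap, the direction could not turn when a library was omitted. The log2 fold changes of *Adamts4*, *Adamts9*, and *Adamts12* spanned 0, from -0.10 to 0.39, from -0.65 to 0.08, and from -0.17 to 0.08. No direction is therefore given for them.

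**Figure D5:**
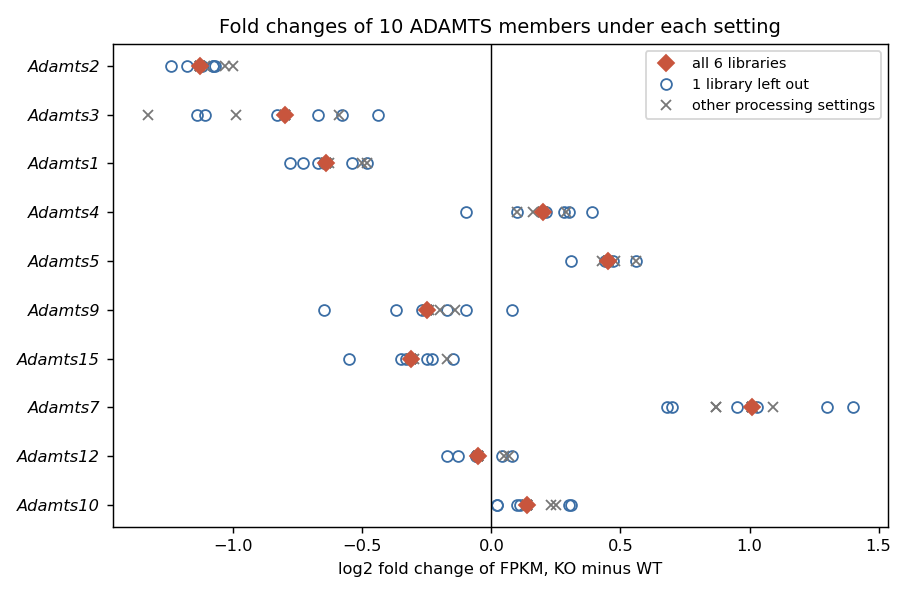
Log2 fold change of FPKM, KO minus WT (horizontal axis), for the 10 ADAMTS genes with all 6 libraries (red diamonds), with 1 library left out (blue circles), and under other processing settings (gray crosses). The points of *Adamts2* run from -1.24 to -1.0, whereas the points of *Adamts4*, *Adamts9*, and *Adamts12* fall on both sides of 0.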

How the data were processed

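Per the labels and the study's methods, reads were trimmed (base quality of at least Q30, length of at least 45), aligned to mm10 with TopHat2, and summarized by the authors with Cufflinks and Cuffdiff into the deposited FPKM values, 1 per gene and library. Versions and the gene annotation are not given in the sources used here. Each column was matched to the library of that title, with 0 columns left over. FPKM hold no counts, so depth is unknown and no counting interval was formed.

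Genes with a mean of at least 1 FPKM over the 6 libraries were compared on log2(FPKM + 0.1) with limma 3.58.1 in R 4.3.3 (lmFit and a trended eBayes, two-sided), adjusted by Benjamini-Hochberg over all genes tested at a threshold of 0.05. For low genes, the added 0.1 can shrink fold changes on this scale, and a value of 0 in a library can enlarge or turn them. *Adamts13*, at 0 in WT 2, had a log2 fold change of 1.21 and a ratio of KO to WT means of 1.48. For *Adamts19*, at 0 in WT 0, these were 0.46 and 0.92. The fit was also run on simulated data with independent errors for each gene. Those data held no effects shared by the genes of a library, so that run does not show how the fit handles such effects. Gene positions came from GENCODE vM21 (GRCm38, the assembly of mm10) and start regions from RefSeq. Named genes are the ADAMTS genes, fixed examples, genes of each list whose groups did not overlap, and the 5 genes most like *Adamts2*. *Hapln1*, *Matn1*, *Myh11*, *Tagln*, *Lum*, *Dpt*, *Timp1*, *Timp4*, *A2m*, *Rn45s*, and *Tbc1d2b* were named after their values were seen. The ADAMTS genes and lists were chosen with earlier results of these data known. Leaving out WT 1 and KO 2, the motifs, and the ratios were chosen after the data were seen. The other alternatives were a pseudocount of 1, other filters, quantile normalization, no trend, a replicate block, and each library left out.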

Additional observations from a re-analysis of the deposited data

How the results depend on the processing

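No ADAMTS gene other than *Adamts2*, which has no test, and no gene of the related lists had an adjusted p under 0.05 in limma under any of the 14 alternatives. The count over all genes, 1, was 2 without the mean-variance trend and 3 without WT 1 and KO 2, and from 1 to 3 with a library left out (3 without WT 1, without KO 0, or without KO 2). The median log2 fold change of the 10 ADAMTS genes, -0.15, was between -0.34 (without WT 2) and -0.04 with a library left out. *Adamts2* ranged from -1.24 to -1.0 over the 14 alternatives. The libraries with the same number in both groups did not deviate together (correlations 0.12, -0.08, and -0.01), and the fit with the replicate block called 1 gene over all genes, 0 ADAMTS genes, and 0 genes of the lists, with a median of -0.15. Of the 42 genes run under the alternatives (the 19 ADAMTS genes, the named list genes given with a fold change, and *Prdm6*), 27 kept their direction in every alternative that gave a value. A gene whose groups did not overlap cannot turn when a library is left out, and many of the list genes were named for that. *Adamts2* was selected for its direction. The count of 27 is therefore no sign of stability.

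Directions turned for *Adamts12* (0.05 with quantile normalization and 0.07 without WT 1 and KO 2), *Adamts13* (-0.07 with quantile normalization), *Adamts14* (0.34 without WT 1 and KO 2), *Adamts19* (-0.03 with a pseudocount of 1 and -0.31 with quantile normalization), and *Prdm6* (0.34 without WT 1 and KO 2). With a library left out, the log2 fold change ran from -0.10 to 0.39 for *Adamts4*, -0.65 to 0.08 for *Adamts9*, -0.17 to 0.08 for *Adamts12*, -0.09 to 2.05 for *Adamts13*, -0.32 to 0.25 for *Adamts14*, -0.56 to 0.15 for *Adamts17*, -1.25 to 1.62 for *Adamts19*, -0.10 to 0.47 for *Adamts6*, -0.20 to 0.66 for *Adamts8*, -0.30 to 0.34 for *Acan*, -0.43 to 0.31 for *Col3a1*, -1.76 to 0.94 for *Comp*, -0.78 to 0.18 for *Ccbe1*, -0.45 to 0.32 for *Vegfc*, and -0.74 to 0.09 for *Prdm6*. The cause was not tested. *Adamts3* was not significant in limma and ran from -1.33 to -0.44 over the 13 alternatives that gave it a value.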
